A study of Vitis vinifera with 74 samples.

Results

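In water-sprayed buds of the grapevine (Vitis vinifera) cultivar Cabernet Franc, 39 of 42413 listed genes met a rule for a low level at 6 h but not at 12 or 24 h. They were at least 2-fold lower 6 h after spraying than before it, and stood near their starting level at 12 and 24 h. That much held for 120 genes, and the 39 also met bounds on 72 h controls, ABA buds and leaves. In buds sprayed with the hormone abscisic acid (ABA), 1 of the 39 was at least 2-fold lower at 6 h, or 2.56%. That gene had 0 counts at 6 h under both treatments. The share was 7.95% over genes with at least 1 CPM (counts per 1000000 counts of a column) before treatment. It was 0.833% over those that met every other condition of the rule. The summed level of the 39 was 340 CPM in ABA buds at 6 h, 128 CPM in control buds at 6 h and 345 CPM before treatment. The low 6 h control level is what the genes were chosen for. At 72 h the sum was 524 CPM in ABA buds and 351 CPM in control buds. Such sums lean on the few most abundant genes. A single one of these had 93.0 CPM in control buds at 72 h against 51.2 CPM before treatment. Taken gene by gene, the median log2 ratio of 72 h control buds to pre-treatment was −0.16.

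The 39 genes were chosen by log2 ratios of group mean CPM + 1, where the added 1 CPM keeps genes with few counts from giving extreme ratios. The ratio of control buds to pre-treatment had to be −1 or lower at 6 h, within 0.5 of 0 at 12 and 24 h and within 1 of 0 at 72 h. The ratio of ABA to control buds had to lie within 1 of 0 at 12 and 48 h. In leaves, the ratio of 4 h controls to pre-treatment had to lie within 1 of 0, and that of ABA to control at 24 h within 0.5. These ratios chose the genes, so they are given below as a description and carry no test. The 3 genes just inside the 6 h limit had ratios of −1.009, −1.014 and −1.021, from pre-treatment levels of 5.71, 1.02 and 3.85 CPM. The 3 genes just outside it, which met the other conditions, had −0.993, −0.988 and −0.988, from 2.07, 1.49 and 6.25 CPM. With 2 CPM added in place of 1, the same rule gave 15 genes, 12 of them among the 39.

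ABA buds came from single-node cuttings of field-grown vines, kept with their cut ends in water until the woolly stage. They were sprayed with S-ABA at 1322 mg per litre (5 mM), with samples at 6, 12, 24, 48 and 72 h. Control buds were sprayed with water and sampled at the same times, and the pre-treatment buds were taken before spraying. Each bud group had 3 count columns, and the 48 h control had 4. ABA leaves came from potted greenhouse vines sprayed with S-ABA at 500 mg per litre (1.9 mM) and a surfactant, and control leaves received water and surfactant, with 4 libraries per treatment at 2, 4, 24 and 48 h. The pre-treatment leaves had 8 libraries. All samples were one cultivar, and how many buds or leaves went into a library is not given in the sources used here.

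ABA is a plant hormone known for its part in drought, cold and dormancy responses. It is sensed by soluble receptors that hold back protein phosphatases, which frees kinases to act on ABA-responsive transcription factors. A woolly bud is one that has begun to swell and show its down, and in this state buds are known to lose cold hardiness as they move towards opening. The counts are of short reads at transcript 3′ ends, so a level stands for transcript number and not for length. The deposited identifiers are not paired with gene names, so the roles of the 39 genes are not described, and 3 of them are named below by their identifiers.

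Total counts ran from 1526985 to 2616086 per bud column and from 1321798 to 2414909 per leaf library. In 10 bud groups the count columns differed from one another by about sampling noise, at 1.02 to 1.17 chi-square units per degree of freedom over 30 pairs. Those of the 48 h control differed by more than that, at 1.34 to 2.00 over 6 pairs. Per the labels, libraries were each sequenced in triplicate, so each bud group is counted as 1 sample, and no test between bud groups is given. Leaf libraries of a group differed by far more, at 3.85 to 25.4 over 76 pairs, and are used as replicates. With no gene names at hand, neither tissue was checked against marker genes.

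The low point at 6 h was not confined to these genes. Of 16917 genes with at least 1 CPM before treatment, 638 were at least 2-fold lower in 6 h control buds, which is 3.77%, and the 39 are a small share of those. Only 120 of the 638 were back within 0.5 of pre-treatment at both 12 and 24 h. Separately, 415 met the 72 h condition, 380 and 512 met the ABA conditions at 12 and 48 h, and 616 and 429 met the leaf conditions at 4 and 24 h. Read the other way, 4959 genes of at least 1 CPM met every condition besides the one at 6 h. Of these, 39 were at least 2-fold lower at 6 h, while 10 were at least 2-fold higher. The remaining 4920 genes, which include those 10, are called the otherwise steady genes below, and the 599 other genes that were at least 2-fold lower at 6 h are called the other low genes.

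Most of the 39 were weakly expressed. Their pre-treatment levels ran from 1.02 to 64.3 CPM with a median of 4.49 CPM, against a median of 19.8 CPM for the otherwise steady genes. The share of such genes that belong to the set was 2.48% between 1 and 2 CPM (9 of 363), 2.44% between 2 and 5 CPM (13 of 533) and 1.37% between 5 and 10 CPM (9 of 658). It was 0.316% between 10 and 20 CPM (3 of 949) and 0.204% at 20 CPM or more (5 of 2456). In number, 31 of the 39 lay under 10 CPM and 8 at or above it. The median gene had 11 counts in the 3 columns of the 6 h control and 30 counts before treatment, and counting error is therefore large for a single gene.

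**Figure D1:**
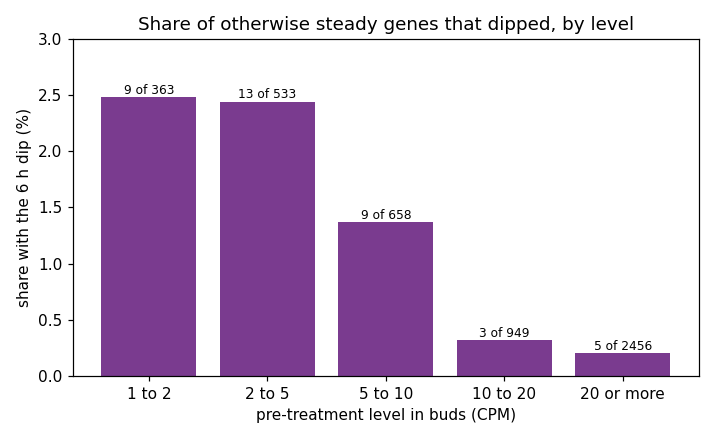
Share of genes meeting every condition besides the one at 6 h that were at least 2-fold lower in control buds at 6 h (y axis, percent), by pre-treatment level in buds (x axis, CPM), with the number of genes on each bar. The share is 2.48% between 1 and 2 CPM and 0.204% at 20 CPM or more.

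In 6 h control buds the 39 genes had a median of 1.47 CPM, and 18 of them were under 1 CPM. In whole buds, fewer cells that express a gene and less of its RNA per cell cannot be told apart. Their median log2 ratio to pre-treatment was −1.13, with a range of −1.76 to −1.01, as the selection required. All Control 6 h columns lay below all pre-treatment columns for 36 of the 39, against 22.0% of the genes with at least 1 CPM and 14.7% of the otherwise steady genes. For 35 of the 39 the 6 h control was the lowest of the 11 bud libraries, against 9.82% of genes and 10.6% of the otherwise steady genes. Both counts use the values that chose the genes and describe how separate the low point was from the other libraries. The summed level of the set in the single columns was 120, 140 and 125 CPM in the 6 h control and 367, 335 and 333 CPM before treatment. The sum in the 6 h control was 37.2% of that before treatment. At 5 of the 39 genes no count was recorded in the 6 h control, where 3 counts over the group correspond to 0.414 CPM. Their pre-treatment levels were 2.46-fold to 5.74-fold that limit. These folds are of CPM without the added 1 CPM, unlike the ratios of the selection, and rest on 7 to 16 pre-treatment counts a gene. The median ratio was −1.13 with those 5 genes at that limit.

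**Figure D2:**
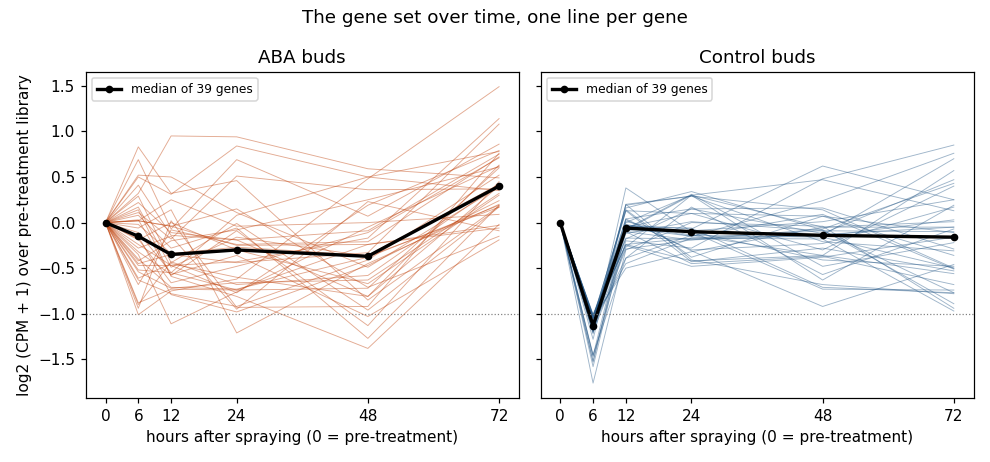
Log2 ratio of CPM + 1 to the pre-treatment library (y axis) at each time after spraying (x axis, hours) for the 39 genes in ABA buds (left) and control buds (right), with a thin line per gene and the median as a thick line. The median is −0.15 in ABA buds and −1.13 in control buds at 6 h, and the dotted line marks the limit of −1 used in the selection.

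How deep the low point is apart from counting error was read from columns that did not choose the genes. The genes were chosen with 1 column number left out of every bud group and then read in that column alone. Without column 1 the rule gave 29 genes, with a median 6 h ratio of −0.90 in column 1, where 27 were below 0 and 12 at least 2-fold lower. Without column 2 it gave 42 genes with a median of −0.86 in column 2, 37 of them below 0 and 16 at least 2-fold lower. Without column 3 it gave 55 genes with a median of −0.78 in column 3, 50 of them below 0 and 21 at least 2-fold lower. The shares of other genes past these limits in a single column are not given here, so the counts are a description. The median in the columns that chose the genes lay between −1.17 and −1.13. Genes with at least 5 CPM before treatment kept more of the depth in the column left out, with medians of −1.13 (11 genes), −1.0 (22 genes) and −0.94 (27 genes). Only 6 of the 39 were chosen whichever column number was left out. The columns are taken to be repeat reads of the same buds, from the labels and their small spread. On that reading these values speak to counting error and not to the spread between buds. The 6 h time point and the single library that represents it cannot be told apart.

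ABA buds at 6 h were not used by the selection. Their log2 ratio to pre-treatment had a median of −0.15 over the 39 genes, between −1.01 and 0.83. Above 0 were 16 genes, or 41.0%, against 47.6% of all genes of at least 1 CPM and 51.1% of the otherwise steady genes. At least 2-fold lower was 1 gene of the 39, which is 2.56%. The share at least 2-fold lower was 7.95% over all genes of at least 1 CPM and 0.833% over the otherwise steady genes, which had a median of 0.01. The other low genes had a median of −1.05, and 321 of those 599 were at least 2-fold lower under both treatments at 6 h. In the columns left out of the choice, the median ratio of ABA buds at 6 h to pre-treatment was 0.07, −0.07 and −0.23. For the 39 the median was −0.07 without column 1, −0.05 without column 2 and −0.25 without column 3. All of these ratios share the pre-treatment library with the selection.

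Set directly against each other at 6 h, ABA buds were higher than control buds for 38 of the 39 genes. The share was 48.0% over all genes and 46.9% over the otherwise steady genes. The remaining gene of the 39 had 0 counts in both treatments. The median log2 ratio was 1.04, and 22 genes were at least 2-fold higher in ABA buds, with 7.47% of all genes and 1.89% of the otherwise steady genes beyond that limit. The otherwise steady genes had a median of −0.03 and the other low genes 0.23. All Control 6 h columns lay below all ABA 6 h columns for 25 of the 39, against 22.9% of genes and 17.7% of the otherwise steady genes. The 6 h control chose the genes for being low, so nothing is read from these counts. The summed level in the single columns was 362, 353 and 305 CPM in ABA buds at 6 h, all above the 3 control columns given above.

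At the later times the 39 genes in ABA buds were first slightly under their starting level and then above it. These ratios share the pre-treatment library with the selection. The selection also bounded the controls at 12 and 24 h, and ABA over control at 12 and 48 h, which limits the ABA ratios there. The median ratio of the 39 to pre-treatment in ABA buds was −0.35 at 12 h, −0.30 at 24 h and −0.37 at 48 h. It was −0.20, −0.06 and 0.00 for the otherwise steady genes, and −0.29, −0.12 and −0.03 for all genes of at least 1 CPM. At 12 h and again at 24 h, 31 of the 39 were below pre-treatment, or 79.5%. The shares were 64.0% and 55.1% of the otherwise steady genes, and 62.8% and 56.0% of all genes. At 48 h, 4 of the 39 were at least 2-fold lower in ABA buds than before treatment, or 10.3%. The share was 2.85% of the otherwise steady genes and 12.6% of all genes. The ratio of control buds at 48 h to pre-treatment was not bounded by the selection, although the 48 h control entered it through the ratio of ABA to control. The median there was −0.14, and 0 of the 39 were 2-fold apart from pre-treatment. Over all genes 3.07% were at least 2-fold lower and 7.64% at least 2-fold higher, and over the otherwise steady genes 0.0813% and 0.122%, so 0 of 39 is near the share of genes held to the same conditions. At 24 h the ratio of ABA to control buds had a median of −0.25, with 1 gene at least 2-fold higher and 1 at least 2-fold lower, or 2.56% each way. The shares were 6.85% and 8.17% over all genes, and 0.732% and 1.30% over the otherwise steady genes. The otherwise steady genes had a median of −0.09 there. These small medians moved with the settings. At 48 h the control median was −0.24 with RLE scaling, which moved the median of all genes by −0.11, and −0.07 without column 1. At 24 h the ABA over control median was −0.14 with RLE scaling, which moved the median of all genes by 0.12, and it was −0.10 without column 1 and −0.14 without column 2.

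At 72 h ABA buds stood above control buds for 36 of the 39 genes. The median log2 ratio was 0.66, between −0.27 and 1.34, against 0.12 over the otherwise steady genes, 0.24 over the other low genes and 0.12 over all genes. A ratio above 0 was found for 62.4% of the otherwise steady genes and 58.7% of all genes. At least 2-fold higher were 4 of the 39, or 10.3%, against 6.99% of all genes and 2.17% of the otherwise steady genes. All 8 genes with at least 10 CPM before treatment were higher in ABA buds, with a median of 0.69, and 28 of the 31 weaker genes were, with a median of 0.59. All ABA 72 h columns lay above all Control 72 h columns for 20 of the 39, against 28.0% of genes and 25.6% of the otherwise steady genes. The selection bounded 72 h controls within 1 of pre-treatment, so ratios at 72 h share one of these libraries with it. Control buds at 72 h had a median of −0.16 against pre-treatment, with 25 of the 39 below 0, or 64.1%. The otherwise steady genes had 0.05 there with 46.5% below 0, and all genes 0.15 with 43.1%. In these 72 h controls 13 of the 39 were at −0.5 or lower, against 800 of the 4920 otherwise steady genes and 3753 of all 16917 genes. Against pre-treatment, ABA buds at 72 h had a median of 0.40, against 0.16 over the otherwise steady genes and 0.25 over all genes. At least 2-fold higher were 3 of the 39, or 7.69%, against 13.3% of all genes and 3.29% of the otherwise steady genes. The ABA 72 h library was above all 6 control libraries for 29 of the 39, against 28.1% of genes, and was the highest of the 11 bud libraries for 21 of the 39, against 16.3% of genes. Here the otherwise steady genes stood at 30.4% and 20.8%. The TMM scaling factor of the ABA 72 h library, 1.16, was the highest of the 11, against 1.11 in the 72 h control and 0.983 before treatment. The median over the 39 was 0.59 with TMM scaling and 0.55 with RLE scaling, which moved the median of all genes by −0.06 and −0.10.

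**Figure D3:**
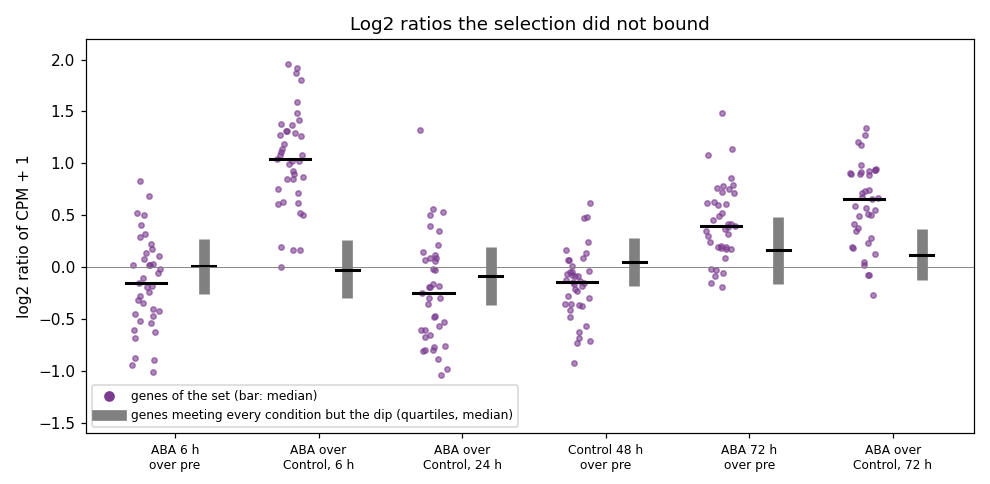
Log2 ratios of CPM + 1 (y axis) that the selection did not bound, with a point for each of the 39 genes and a bar at their median, beside the quartiles and median of the 4920 otherwise steady genes (grey). The median of the 39 is 1.04 for ABA over control at 6 h, which shares the 6 h control with the selection. It is 0.66 for ABA over control at 72 h, which shares the 72 h control with the selection.

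The gene with the deepest low point among those with at least 10 CPM before treatment was Vitvi11g00979. It had 5.63, 9.65 and 5.76 CPM in the columns of ABA buds at 6 h, 2.6, 3.82 and 3.46 CPM in control buds at 6 h, and 13.6, 10.4 and 10.2 CPM before treatment. The 3 groups did not overlap, with ABA buds between the other two. The means were 7.01 CPM from 35 counts (exact 95% Poisson interval 4.95 to 9.89) in ABA buds at 6 h, 3.29 CPM from 24 counts (2.12 to 4.93) in control buds at 6 h and 11.4 CPM from 76 counts (8.93 to 14.2) before treatment. These intervals cover counting error only. In ABA buds it stayed under the controls at 12, 24 and 48 h, at 6.19, 5.56 and 8.34 CPM against 10.9, 10.5 and 10.2 CPM. At 72 h it was higher in ABA buds, at 16.8 CPM (13.4 to 20.8) against 11.7 CPM (8.89 to 14.9) in control buds.

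The gene of the set with the highest pre-treatment level, Vitvi07g01378, had 71.3, 73.2 and 51.8 CPM in ABA buds at 6 h, 27.3, 27.1 and 30.3 CPM in control buds at 6 h, and 72.7, 60.6 and 59.5 CPM before treatment. ABA buds at 6 h and pre-treatment buds overlapped, and the 6 h control columns lay under both. The counts behind these groups were 324, 204 and 430. Its controls at the other times lay between 56.7 and 61.9 CPM, so 6 h was the one control library apart. ABA buds varied more, with 42.7 CPM at 12 h, 60.5 CPM at 24 h, 28.9 CPM at 48 h and 88.2 CPM at 72 h. In ABA buds the lowest point of this gene was at 48 h, close to the limit that the selection set there.

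Vitvi19g00507 had the highest ABA over control ratio at 6 h among genes with at least 10 CPM before treatment, 1.92 on the log2 scale. It had 42.5, 46.5 and 40.3 CPM in ABA buds at 6 h, 7.79, 13.0 and 11.2 CPM in control buds at 6 h, and 23.5, 18.7 and 29.5 CPM before treatment. Here ABA buds lay above pre-treatment and control buds under it, with no overlap between the 3 groups. The control level was 22.3 CPM at 12 h and 22.2 CPM at 24 h, then 14.0 CPM at 48 h and 13.9 CPM at 72 h. ABA buds had 30.0, 33.2, 12.8 and 27.2 CPM at these times. The low control level at 6 h was thus only slightly under that at 48 and 72 h for this gene, and its intervals overlapped, at 8.52 to 13.4 CPM at 6 h, 11.4 to 16.8 CPM at 48 h and 11.0 to 17.6 CPM at 72 h. None of these 3 genes was among the 6 chosen whichever column number was left out.

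**Figure D4:**
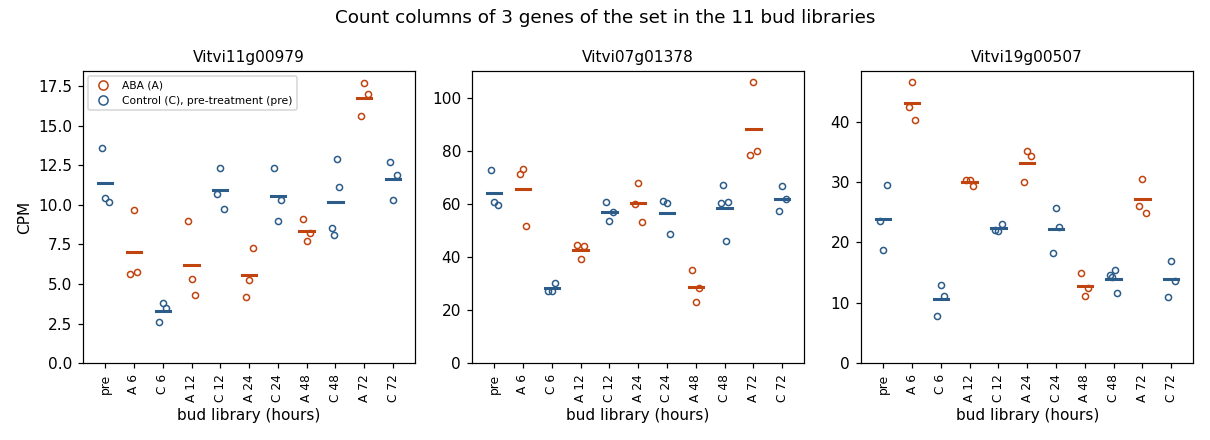
CPM in each count column (circles) of the 11 bud libraries (x axis, hours after spraying, with pre for pre-treatment) for 3 genes of the set, with ABA libraries marked A and orange, control libraries marked C and blue, and a bar at each group mean. In the 6 h control the means are 3.29 CPM for Vitvi11g00979, 28.2 CPM for Vitvi07g01378 and 10.7 CPM for Vitvi19g00507.

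Likeness of course between genes of the set was described by correlation. Over the 11 bud libraries the 741 pairs of genes had a median Pearson correlation of 0.60 in log2 CPM + 1, and without the 6 h control the median was 0.29, between −0.75 and 0.96. With Vitvi11g00979 as the pattern, 15 of 25995 genes compared had a correlation of 0.9 or more over the 11 libraries, and 5 of these were genes of the set. The other genes of the set had correlations with it of 0.10 to 0.94, with a median of 0.70. The points are single libraries that share the selection, so these values are descriptions.

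In leaves most of the set was weakly expressed. Summed over the 40 leaf libraries a gene had between 2 and 3313 counts, with a median of 109. Vitvi07g01378, the most abundant in buds before treatment, averaged at most 0.395 CPM in any leaf group. Of the 39 genes, 16 passed the filter on low counts among 13378 genes tested, and the other 23 were not tested. The 16 are the better expressed ones and do not stand for the whole set.

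Between ABA and control leaves, 0 of the 16 genes passed edgeR's quasi-likelihood test at an adjusted p under 0.05 at 2, 4 or 48 h, against 0.0972%, 1.55% and 2.21% of all genes tested and 0.024%, 0.432% and 0.696% of the otherwise steady genes tested. At an unadjusted p under 0.05 by edgeR there were 1, 1 and 3 of the 16. The share of all genes at that limit is not given here, so nothing is read from these counts. DESeq2 called 0 at each of the 3 times. The direction was uneven at the early times. The log2 fold change was negative for 13 of the 16 at 2 h, with a median of −0.36, and for 14 of the 16 at 4 h, with a median of −0.42. Over all genes tested the medians were −0.01 and 0.00, and 51.8% and 50.0% were negative. By log2 ratios of group mean CPM + 1, ABA leaves were below controls for 66.7% of the 39 at 2 h and 74.4% at 4 h. The shares were 70.5% and 64.3% of the other low genes, and 57.4% and 52.2% of all genes of at least 1 CPM. A lean of this kind was thus also found outside the set. At 48 h the fold change was positive for 11 of the 16, with a median of 0.13, against 51.2% of all genes tested. Vitvi11g00979 had −0.72 ± 0.41 (SE) at 2 h and −0.59 ± 0.44 at 4 h, with adjusted p of 0.699 and 0.559 by edgeR. Without 1 control library of 2 h, replicate 1, its value at 2 h was −0.03, and without control replicate 2 its value at 4 h was −0.28.

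Control leaves at 2 h against pre-treatment gave 1 gene of the 16 past the test, against 11.0% of all genes tested and 6.96% of the otherwise steady genes tested. It was Vitvi11g00979, which had 6.05, 7.59, 7.87 and 26.3 CPM in the control libraries of 2 h and 1.09 to 7.17 CPM in the 8 pre-treatment libraries, with a median of 4.96 CPM. The groups overlapped, and control replicate 1, the only one of the 2 h controls on a second flow cell, stood far above the other 3. The means were 12.0 ± 9.61 CPM in 2 h controls (SD, n = 4) and 4.75 ± 2.16 CPM before treatment (SD, n = 8), with a log2 fold change of 1.23 ± 0.35 (SE) and an adjusted p of 0.0181 by edgeR. Without that library the log2 fold change was 0.55 and the adjusted p 0.463, so the call rests on 1 library. No gene of the 16 was called in control leaves at 24 h, against 2.94% of all genes and 1.49% of the otherwise steady genes tested. None was called at 48 h, against 0.277% and 0.168%. An unadjusted p under 0.05 by edgeR was found for 4 of the 16 at 2 h and 1 each at 24 and 48 h. These counts also have no share of all genes beside them. DESeq2 called 0 at 24 and 48 h. The fold changes of the 16 were positive for 15, 12 and 10 genes at 2, 24 and 48 h, with medians of 0.32, 0.38 and 0.11. Over all genes tested the medians were 0.02, 0.01 and −0.01, and 51.8%, 51.4% and 48.9% were positive. By log2 ratios of group mean CPM + 1, 2 h controls were above pre-treatment for 84.6% of the 39. The share was 73.8% of the other low genes and 61.0% of all genes of at least 1 CPM. The comparisons of ABA with control leaves at 2 h and of 2 h controls with pre-treatment share the 2 h control libraries. Those at 48 h likewise share the 48 h controls, and the 3 control comparisons share the pre-treatment libraries. The selection used leaf pre-treatment, the 4 h controls, and controls and ABA leaves at 24 h. The 3 control comparisons and that of ABA with control at 4 h therefore share libraries with the selection.

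**Figure D5:**
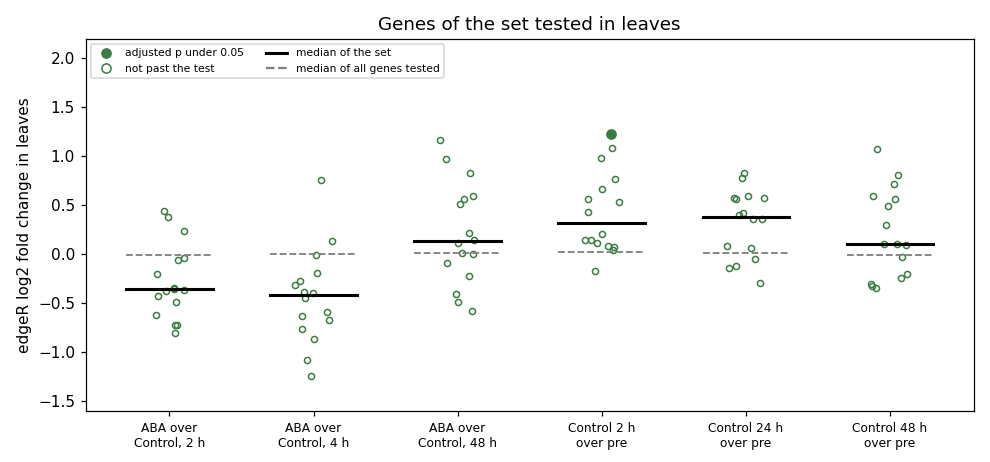
Log2 fold change by edgeR in leaves (y axis) for the 16 genes of the set that were tested, in 6 comparisons (x axis), with a bar at their median and a dashed line at the median of all genes tested. The filled point, Vitvi11g00979 in 2 h controls over pre-treatment at 1.23, is the only one past an adjusted p of 0.05.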

How the data were processed

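The deposited tables, with 34 bud and 40 leaf columns, hold whole-number read counts for each gene, from QuantSeq 3′ libraries per the labels' protocols. FastQC, STAR and DESeq2 appear in the submitters' processing notes without versions. Genome build, annotation and counting options were not given in the sources used here, so genes with close copies or antisense partners are uncertain. Columns were matched to samples by header and title. The 8 leaf pre-treatment columns share 4 header names, each of which occurs 2 times, and were used by group only. The 72 h bud samples carry the code 75 in their descriptions. None of the 42413 identifiers (0) was found in the gene table at hand.

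CPM was computed from column totals, and the selection rule was applied to group means. The genes and the comparisons were chosen with earlier results of these data known. Bud columns of a group agreed within about sampling noise, besides those of the 48 h control, which differed by more (chi-square over genes of 20 or more counts in the pair). Each bud group counts as 1 sample. Leaves were fitted with edgeR 4.0.16 in R 4.3.3 (quasi-likelihood, TMM, filterByExpr with a minimum count of 10, 9 group means in one fit, Benjamini-Hochberg over 13378 genes holding 99.4% of the counts), and calls are at an adjusted p under 0.05. The labels do not tie leaf libraries to single vines, so p-values reflect the spread between libraries, which may be technical. DESeq2 1.42.0 was an alternative. The leaf fit was tested on simulated counts.

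The named genes are those with the lowest 6 h control ratio and the highest ABA over control ratio at 6 h among genes of at least 10 CPM before treatment, the highest pre-treatment level, and the strongest called leaf rise, which fell on the first of these. Other alternatives were scaling, pseudocount, filters, flow cell, the groups in the fit, a replicate block and leaving out columns or libraries.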

Additional observations from a re-analysis of the deposited data

Results flagged for a closer look

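In the leaf groups, single libraries far from the others of their group were looked for in the 3 named genes, in 27 groups of 4 or 8 libraries, of which 26 held a count. Chance gives about 1 such group in 20, which does not apply where 1 library alone has a count, since such a group always stands out by this measure. In 2 h control leaves, Vitvi11g00979 had 26.3 CPM in 1 library, with 6.05 to 7.87 CPM in the other 3. That library was 1 of 4 leaf libraries on the second flow cell, and the part of the flow cell was not tested. The same gene had a highest library of 16.3 CPM in ABA leaves at 24 h and 16.2 CPM at 48 h. The group medians there were 7.15 and 9.29 CPM, and neither library was flagged by this measure. Vitvi07g01378 had a count in only 1 of the 4 libraries of ABA leaves at 24 h, at 0.73 CPM, and in 1 of 4 at 48 h, at 1.10 CPM, from 1 and 2 counts. Vitvi19g00507 had 1.41 CPM in 1 library of ABA leaves at 4 h, with a group median of 0.513 CPM and 6 counts in the group.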

How the results depend on the processing

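Both the number of genes and which genes they are depended on the settings. The rule gave 15 genes with a pseudocount of 2 CPM, 12 of them among the 39, and 17 with at least 5 CPM required before treatment. It gave 48 with a pseudocount of 0.5 CPM, of which 23 were among the 39. With TMM and RLE scaling it gave 39 and 40 genes, sharing 34 and 32 with the 39, and leaving out column 1, 2 or 3 gave 29 to 55, sharing 14, 18 and 20. Leaving out the fourth column of the 48 h control, and reading genes in a column that did not choose them, were chosen after seeing the data. The 5 bud medians, taken over the same 39 genes (or the 17), kept their sign under each alternative run. That of ABA buds at 6 h to pre-treatment ranged from −0.25 to −0.05 when a column was left out. That of ABA over control at 6 h was 1.22 with a pseudocount of 0.5 CPM and 0.81 with 2 CPM, and 1.03 to 1.11 when a column was left out. At 24 h it was −0.14 with RLE scaling and ranged from −0.34 to −0.10 when a column was left out. In 48 h controls the ratio to pre-treatment was −0.24 with RLE scaling, which moved the median of all genes by −0.11 there and by 0.12 for ABA over control at 24 h. At 72 h the ABA over control median ranged from 0.49 to 0.71 when a column was left out. In 2 h control leaves the count of genes called was 2 without the low count filter, 0 when the fit held only the compared groups, 0 without the second flow cell, and 0 to 2 when a library was left out. Vitvi11g00979 had an adjusted p of 0.0756 with only the compared groups and 0.392 without the second flow cell, where its log2 fold change was 0.55. The other leaf counts stayed at 0 under each alternative run. With the replicate number as a block, 0 genes of the set were called at 2, 4 and 48 h, as without it. Libraries with the same number did not deviate together (r of −0.22 to 0.16, 3 of 16 correlating best with their own number). A block over all leaf groups, with the number read from the header name and chosen after seeing the data, gave 1, 0 and 0 genes called in control leaves at 2, 24 and 48 h, as without it. The causes of these shifts were not tested. At a median of 11 counts a gene in the 6 h control, depth limits what single genes show.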
